A study of Xenopus tropicalis with 12 samples.

Results

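Of the 15365 regions bound by thyroid hormone (T3) receptor (TR) in the intestine of Xenopus tropicalis tadpoles, 4622 (30.1%) lay inside gene bodies, away from the start of any gene. To find them, peaks of the 12 ChIP-Seq libraries sharing 1 bp or more were merged, and a merged region was kept when at least 1 condition had a peak there in each of its 3 libraries. A kept region was a gene-body region when its midpoint fell between the start and end of an annotated gene and no part of it came within 1 kb of a gene start. Of the remaining regions, 755 reached to within 1 kb of a gene start, 1672 lay in the flanks within 5 kb of a gene and 8316 lay farther from every annotated gene. Only genes with a gene entry in the peak lists count here, and these entries cover 68.7% of the gene names in the lists. Regions inside the other genes can therefore be counted among those in flanks or far from genes.

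The libraries were made from the intestine of wild-type and TRα knockout (TRα-/-) tadpoles of the same parents at stage 54, which were left without T3 (control) or treated with 10 nM T3 for 18 h. Each of the 4 conditions was 1 ChIP DNA sample, merged from several tadpoles and sequenced as 3 technical replicates, so that the spread between libraries, and every p-value below, covers library preparation and peak calling and not differences between animals, and a difference between conditions cannot be told apart from a difference between these 4 samples. The antibody recognized both TRα and TRβ, so that TRβ could still be precipitated in TRα-/- intestine. None of the peak lists names thra, and the genotype could therefore not be checked on the targeted gene, nor can a peak list show which cells the tissue held. The lists held 17414 to 63333 peaks per library, and the number of reads behind them is not known.

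TR binds T3 response elements as a heterodimer with the retinoid X receptor. Without T3 the receptor holds corepressor complexes at its target genes, and with T3 it exchanges them for coactivators that open the chromatin. In the tadpole intestine, T3 makes the larval epithelium die and the stem cells of the adult epithelium appear. Nuclear receptors in general bind many sites in introns and between genes besides those at promoters.

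The median width of the gene-body regions was 845 bp, with a range of 183 to 5172 bp, and 92 of them (1.99%) overlapped an exon or coding segment that the lists give. These exon entries cover only features near peaks, so that the share is a lower limit. The host gene was on the plus strand for 47.6% of the regions. With genes cut into 3 equal segments, 32.7% of midpoints lay nearest the gene start, 35.1% in the middle and 32.2% nearest the gene end. Regions within 1 kb of a gene start are left out by definition, so these shares cannot show whether binding leans toward the start. The median distance of the midpoint from the start of the gene was 31102 bp. In the 1120 regions with a peak in all 12 libraries, the summits of the 12 libraries scattered with a median SD of 112 bp.

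A total of 2028 of 13705 annotated genes (14.8%) held such a region, and 1200 of them held only 1. Annotated genes here are those with a gene entry in the peak lists, which give features near called peaks. Every share of all genes below has this base. Long genes held them most often. A region was found in 0.797% of the 3388 genes shorter than 5 kb, in 21.0% of the 3124 genes of 20 to 50 kb and in 59.7% of the 300 genes of at least 200 kb, and the median length of the host genes was 78076 bp against 14807 bp for all genes. Per length of gene, however, the density changed little above 5 kb, with 8.67 to 11.4 regions per Mb of gene sequence in the 5 length classes from 5 kb upward.

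TR binding inside genes was concentrated toward the ends of the chromosomes. Within 2 Mb of a chromosome end, taken as position 0 or the last position with a peak in any library, there were 64.6 gene-body regions per Mb of gene sequence. The density was 43.2 at 2 to 5 Mb, 29.4 at 5 to 10 Mb, 11.7 at 10 to 20 Mb, 3.53 at 20 to 40 Mb and 1.64 beyond 40 Mb. It thus fell at each step away from the end, and 2967 of the 4622 regions (64.2%) lay within 10 Mb of an end, where 15.8% of the gene sequence lies.

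The concentration was present on every chromosome. Of the gene-body regions with a peak in a library, 64.2 to 69.4% lay within 10 Mb of an end in each of the 12 libraries. These shares are taken within the pooled 4622 regions and are largely fixed by them. The peak list of each library by itself was not examined for this. On single chromosomes the share was lowest on chromosome 2, at 54.0%, and highest on chromosome 10, at 79.3%, where these stretches make up 10.3 to 50.1% of the length of a chromosome. Nor was it confined to gene bodies, as 60.9% of the regions at gene starts, 61.0% of those in gene flanks and 50.2% of those far from genes lay there too. A gene within 10 Mb of an end held a region in 1031 of 3021 cases (34.1%), and a gene elsewhere in 997 of 10684 (9.33%). Among genes of at least 200 kb, these shares were 40 of 41 (97.6%) and 139 of 259 (53.7%). The peaks were called without an input library, and these lists therefore do not show whether chromatin that was not precipitated has a like pattern.

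**Figure D1:**
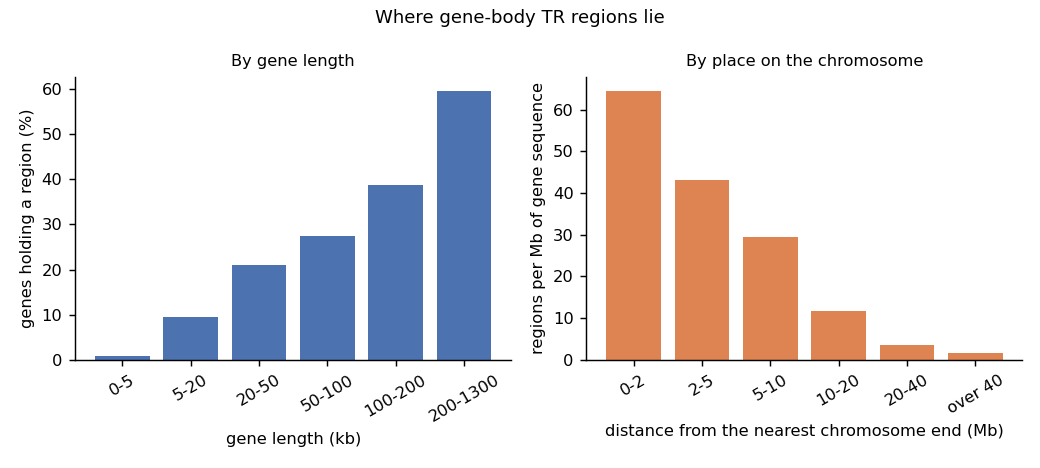
Left, percent of annotated genes that hold at least 1 TR-bound gene-body region, by gene length in kb; right, gene-body regions per Mb of gene sequence, by distance from the chromosome end in Mb. The percent rose from 0.797 in the shortest to 59.7 in the longest genes, and the density fell from 64.6 within 2 Mb of an end to 1.64 beyond 40 Mb.

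Most of the genes with the most regions were near chromosome ends. The gene atrnl1, which encodes an attractin-like membrane protein, held 54 regions in 388102 bp on chromosome 7 (82319 to 470420), 0.276 Mb from the end. In the wild-type control libraries 31, 47 and 48 of the 54 regions had a peak, and with T3 51, 54 and 54. In TRα-/- intestine 37, 42 and 44 had a peak without T3 and 33, 37 and 44 with T3. Every library therefore had a peak in most of them. The cell adhesion gene lsamp followed with 39 regions, the α-catenin gene ctnna2 with 38, the cGMP-dependent kinase gene prkg1 and the RNA-binding protein gene celf4 with 33 each, the LDL receptor family gene lrp1b with 29 and the adhesion receptor gene adgrb1 with 26. Of the 12 genes with the most regions, 10 lay within 10 Mb of a chromosome end, the exceptions being gpm6b (25 regions), which encodes a proteolipid-family glycoprotein of neurons and glia, and LOC100497515 (24 regions). The 59 genes with at least 10 regions held 980 of them (21.2%).

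To compare levels between libraries, the pileup of the strongest peak in a region (the number of stacked fragments) was divided by the median pileup of the same library over the 3944 regions of any kind that had a peak in all 12 libraries. This ratio is called the relative pileup below, and a value of 1 is that of a middling constant region. Among the gene-body regions with a peak in every library, the one with the best median rank (16.5 among all peaks of a library, ranked by p-value) was in LOC100498069, which the RefSeq table names adgrl3, a latrophilin adhesion receptor, on chromosome 1 (71371864 to 71372393, Xenbase build v9.1). Its relative pileup was 18.2, 16.6 and 17.1 in the wild-type control libraries and 22.8, 21.1 and 19 with T3, and in TRα-/- intestine 17, 14.5 and 13.5 without and 21.0, 14.8 and 18.5 with T3. The region was high in every library, with group means of 17.3 ± 0.86, 21.0 ± 1.89, 15.0 ± 1.82 and 18.1 ± 3.14 (SD, n = 3).

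Of the 10 best-ranked of these regions, 4 were in gpm6b on chromosome 2, starting at 102114113, 102077924, 102095274 and 102155851. The others were in rapgef1, which encodes an exchange factor for the small GTPase Rap1 (chromosome 8, 6399110 to 6399973), in the collagen gene col19a1, in the RNA polymerase phosphatase gene ctdsp1 (chromosome 9, 77064914 to 77066271), in LOC100488689 and in the adenosine deaminase gene ada (chromosome 10, 29696666 to 29697082). The mean relative pileup at rapgef1 was 7.48 and 7.28 in wild-type intestine without and with T3 and 9.74 and 8.31 in TRα-/- intestine. At ctdsp1 it was 7.94 and 8.99 in the wild type and 9.04 and 11.7 in the knockout. By rank these sites were among the strongest peaks of all 4 conditions.

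The first comparison was the number of gene-body regions with a peak in each library. The wild-type control libraries had a peak in 3028, 3821 and 4177 of them and the wild-type T3 libraries in 4029, 4351 and 4412. The TRα-/- libraries had a peak in 2841, 3343 and 3426 without T3 and in 2443, 2923 and 3276 with T3. The wild-type T3 libraries were thus highest on average and above all TRα-/- libraries, while the control libraries of both genotypes overlapped with their T3 counterparts. The means were 3675 ± 588 and 4264 ± 206 in wild-type intestine without and with T3, and 3203 ± 317 and 2881 ± 418 in TRα-/- intestine (SD, n = 3). With T3, the difference of TRα-/- from wild-type libraries was -1383 regions (exact permutation test, two-sided, p = 0.1, the smallest that 3 libraries against 3 allow; adjusted p = 0.4 over 4 comparisons). The differences of 589 for T3 in the wild type (exact p = 0.2), -323 for T3 in the knockout (exact p = 0.4) and -472 between genotypes without T3 (exact p = 0.3) had overlapping groups.

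The number of called peaks differed between libraries, so the counts were repeated with the 17414 strongest peaks of each library. This left 3078 gene-body regions. The means were then 2421 ± 305, 2814 ± 94, 2183 ± 221 and 2242 ± 144 in the same order, and the difference between genotypes with T3 was -572 (exact p = 0.1, adjusted p = 0.2). The difference for T3 in the wild type was 393, with all 3 T3 libraries (2705 to 2869) above all 3 control libraries (2084 to 2680; exact p = 0.1, adjusted p = 0.2). The T3 difference in TRα-/- intestine changed sign, from -323 to 58 (exact p = 0.7). Gene-body regions made up 29.3 to 30.1% of the regions with a peak in every library, so that the counts of gene-body regions moved with those of all regions. Equal numbers of peaks do not make depth equal. The median pileup over regions with a peak in all 12 libraries was 8, 18 and 28 fragments in wild-type control and 17, 32 and 35 in wild-type T3. In TRα-/- intestine it was 8, 15 and 15 without and 9, 13 and 15 with T3. How far the counts follow depth was not tested.

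**Figure D2:**
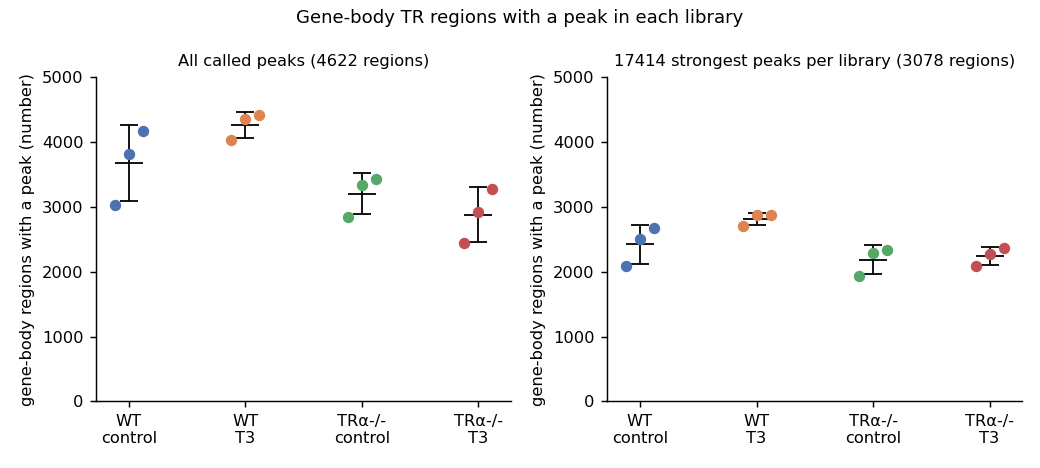
Number of gene-body regions with a peak in each of the 12 libraries, over all peaks and over the 17414 strongest peaks per library; points are libraries and bars give the mean and SD of 3. The 3 wild-type T3 libraries lie above all TRα-/- T3 libraries in both, and the group means differ less with equal numbers of peaks.

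Many of the sites were bound throughout, as 1120 of the 4622 gene-body regions (24.2%) had a peak in all 12 libraries, against 25.7% of all regions. A peak in all 3 libraries was found in 2650 regions in wild-type control intestine, 3839 in wild-type T3, 2144 in TRα-/- control and 1777 in TRα-/- T3. These were 29.7, 29.9, 28.9 and 29.1% of all regions with 3 such peaks, near the 30.1% of gene-body regions among all regions. For 1804 gene-body regions (39.0%, against 37.7% of all regions) this was so in 1 condition only. Within 10 Mb of a chromosome end 27.5% of the gene-body regions had a peak in all 12 libraries, and elsewhere 18.3%.

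Which sites gained or lost a TR peak with T3, and which had one in a single genotype, was then read from regions that all 3 libraries of one group and none of the other had called. With T3 treatment the wild type gained 130 gene-body regions (2.81%, against 2.72% of all regions) and lost 36 (0.779%, against 0.84%). In TRα-/- intestine T3 gained 23 (0.498%, against 0.625%) and lost 102 (2.21%, against 2.15%). Without T3, 169 regions (3.66%, against 3.54%) were found in the wild type and in no TRα-/- library, and 27 (0.584%, against 0.69%) the other way round. With T3, 473 regions (10.2%, against 9.81%) were found in the wild type alone and 11 (0.238%, against 0.156%) in TRα-/- intestine alone. Apart from the last count, the share in gene bodies was near that of all regions, so that none of those counts was particular to gene bodies. Of the 24 regions found with T3 in TRα-/- intestine alone, 11 were in gene bodies. The share of such regions was 0.132% at gene starts, 0.12% in flanks and 0.12% far from genes. Whether the classes differ in this small count was not tested.

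The sites of these 8 counts ranked lower than gene-body regions as a whole, whose median rank was 8941.5 and median width 845 bp. A merged region spans the peaks of all libraries, so its width depends on how many of them had a peak. The 130 regions gained with T3 in the wild type had a median rank of 17219 and a width of 616 bp, and in the 8 sets the median rank ran from 9827.5, for the 11 regions found with T3 in TRα-/- intestine alone, to 17219. The 23 gained with T3 in TRα-/- intestine had a median rank of 10005. A rank depends on the length of the list. The TRα-/- T3 libraries held 17414 to 30916 peaks and the wild-type T3 libraries 34933 to 44567. The ranks of the sets can therefore not be compared directly. With equal numbers of peaks per library, the sites found in the wild type alone were 169 of 3078 with T3 (5.45% of all regions) and 100 without (3.18%), and those found in TRα-/- intestine alone were 15 with T3 (0.533%) and 22 without (1.04%). T3 then gained 101 sites and lost 23 in the wild type (3.43% and 0.707% of all regions), and gained 47 and lost 35 in TRα-/- intestine (1.76% and 1.31%). The excess of lost over gained sites in TRα-/- intestine was thus not present with equal numbers of peaks.

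**Figure D3:**
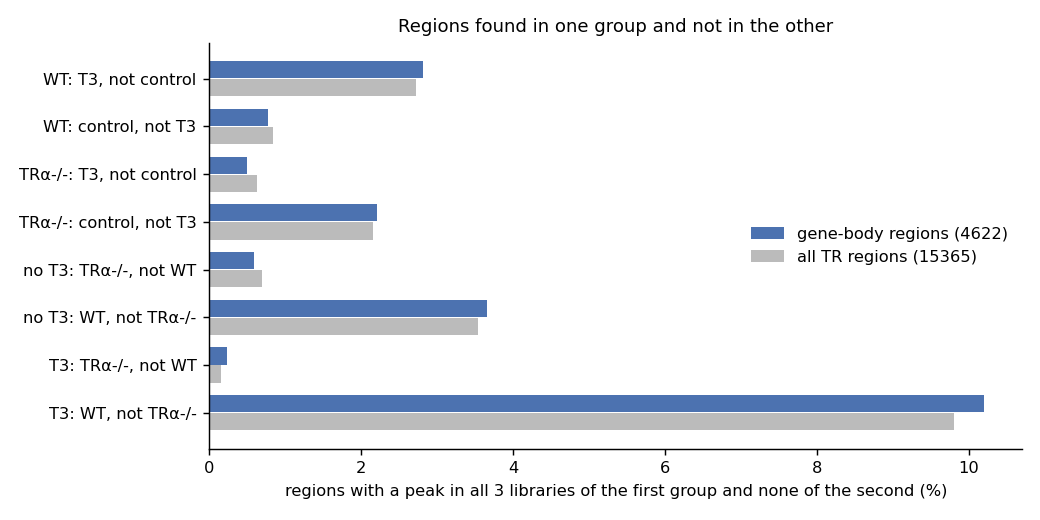
Percent of regions called in all 3 libraries of one group and in none of the other, for the gene-body regions and for all 15365 regions, in both directions of the 4 comparisons. The highest bar, 10.2% of the gene-body regions, is for wild-type T3 against TRα-/- T3, and the bars for gene bodies and for all regions are close to each other.

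The best-ranked of the 130 sites gained with T3 in the wild type included a region of the TRβ gene thrb. That region, on chromosome 6 (77251220 to 77251578) had relative pileups of 0.824, 0.469 and 0.914 in the wild-type T3 libraries and no peak in the other 9. One in pik3r1, which encodes the regulatory subunit of phosphatidylinositol 3-kinase, on chromosome 1 (173918742 to 173919028) had 1.0, 0.719 and 0.886 and likewise no peak elsewhere. These sites therefore reached at most the level of a middling constant region. A region of LOC100490156 on chromosome 2 (52979384 to 52979643), named foxo6 in the RefSeq table and thus a forkhead transcription factor gene, had 1.29, 0.812 and 1.11 and 1 further peak of 0.308 in a TRα-/- T3 library. A region of the phosphatase gene ppm1b on chromosome 5 (14775813 to 14776193) had 0.824, 0.375 and 0.771 and 1 peak of 0.778 in a TRα-/- T3 library.

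A region of ptn, which encodes the heparin-binding growth factor pleiotrophin, was found with T3 in both genotypes and without T3 in neither. Its relative pileups on chromosome 3 (1066391 to 1067175) were 0.529, 0.562 and 0.543 in wild-type T3 and 0.333, 0.385 and 0.467 in TRα-/- T3 libraries. All 6 values were below the median of the constant regions, and the 3 wild-type libraries lay above the 3 TRα-/- libraries.

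The opposite pattern was seen at the DNA repair gene mgmt. A region of 188 bp on chromosome 7 (14422123 to 14422310) had relative pileups of 1.75, 1.83 and 1.89 in the wild-type control libraries and no peak in the other 9. Regions of crybg3 (0.375, 0.611 and 0.571) and of the p38 kinase gene mapk14 (0.75, 0.889 and 0.571) were also found in the wild-type controls and in no wild-type T3 library, at lower levels.

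A set of narrow peaks was strong in the wild-type control libraries. Among the 2157 gene-body regions that had a peak in each of the 6 wild-type libraries, limma with Benjamini-Hochberg adjustment over all 7343 such regions gave 17 that were lower with T3 (0.788%, against 0.64% of all regions) and 0 that were higher, while 125 had an unadjusted p below 0.05. They had log2 fold changes of -2.0 to -1.22 with a median of -1.52, lay on 8 chromosomes and had a median width of 504 bp, against 941 bp for the 2157. A merged region spans the peaks of all 12 libraries, so its width depends on how many had a peak. All 3 TRα-/- control libraries had a peak in 68.1% of the 2157 and in none of the 17. How far this sets the difference in width was not tested. The set of 17 was put together after the values were seen, and none of its regions had a peak in all 12 libraries. Whether these narrow peaks are TR binding was not tested, since no input library was used.

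At herc2, which encodes a large ubiquitin ligase, a region of 211 bp on chromosome 2 (111067107 to 111067317) had relative pileups of 7.5, 8.17 and 8.0 in wild-type control, 2.82, 2.88 and 2.69 in wild-type T3 and no peak in any of the 6 TRα-/- libraries (log2 fold change with T3 -1.43, SE 0.175, limma adjusted p = 1.78e-05). At gpsm1, which encodes a modulator of G-protein signalling, a region on the same chromosome (81772483 to 81773165) had 6.62, 9.39 and 7.93, then 2.94, 2.69 and 2.71, and again no peak in the knockout (-1.44, SE 0.186, adjusted p = 3.48e-05). Both sites thus had a level several times that of a middling constant region in wild-type control libraries, less with T3 and nothing called in the knockout. Regions of arhgap31, a GTPase-activating protein gene (5.0, 5.39 and 5.61, then 1.82, 2.0 and 1.51), of the transcription factor gene rfx1 (5.88, 6.11 and 6.43, then 1.53, 2.38 and 2.34) and of the adhesion gene sdk2 (2.0, 2.0 and 1.75, then 0.471, 0.469 and 0.429) had the same pattern. These 5 were among the 21 gene-body regions that every wild-type library and no TRα-/- library had called (0.454%, against 0.488% of all regions), of which 18 had a log2 fold change below 0 with T3.

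Several of the strongest of the 17 had small peaks in the knockout. At pdia4, which encodes a disulfide isomerase of the endoplasmic reticulum, a region on chromosome 6 (82790518 to 82790772) had relative pileups of 23.5, 27.7 and 30.2 in wild-type control and 9.06, 12.5 and 9.74 in wild-type T3. It had no peak in TRα-/- control and 1.56, 1.23 and 1.8 in TRα-/- T3 libraries. A region of the deubiquitinase gene usp15 on chromosome 3 (53245459 to 53245708) had 41.2, 35.5 and 27.1, then 12.5, 13.8 and 9.57, a single peak of 1.12 in TRα-/- control and 1.44, 1.77 and 2.07 in TRα-/- T3 libraries. The wild-type control level at usp15 was higher than at the best-ranked constant gene-body region, and the knockout level was near that of a middling one. In lrfn2, a synaptic adhesion gene, a region on chromosome 5 (1060187 to 1061079) had 10.0, 15.1 and 16.3, then 3.59, 5.19 and 4.83, and only 2 peaks in the knockout, of 0.889 and 0.867, both with T3.

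Over the 17 regions, the median relative pileup was 6.12, 6.11 and 5.61 in the wild-type control libraries and 1.82, 2.38 and 2.17 in the wild-type T3 libraries. A peak was found in 3, 0 and 4 of them in the TRα-/- control libraries and in 7, 7 and 12 in the TRα-/- T3 libraries. No peak in any TRα-/- control library was found for 11 of the 17 (64.7%), against 3.01% of the 2157 regions, and none of the 17 had one in all 3. The order of the wild-type groups was set by the choice of the 17, while the TRα-/- libraries were not used for it. In all 17, each wild-type control library lay above each wild-type T3 library, so that leaving 1 library out could not test the direction. With any 1 of the 6 wild-type libraries left out, 16 or 17 of them were still called. Those fits used the same libraries that chose the 17. On the fold enrichment scale (pileup over local background, log2 values centred on the library median) the difference with T3 was smaller. The median log2 fold change was -0.78 and 7 of the 17 were called. Without centring, the mean at herc2 was 32.8 ± 2.51 in wild-type control and 25.2 ± 0.819 in wild-type T3 (SD, n = 3), and at pdia4 32.1 ± 3.08 and 28.8 ± 1.17. Since the 17 regions differ together between what were 4 single ChIP samples, sample and condition cannot be told apart.

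The reverse was found at gabarapl1, which encodes an autophagy protein of the Atg8 family. A region of 185 bp on chromosome 7 (10496285 to 10496469) had relative pileups of 36.7, 24.8 and 30.3 in the TRα-/- T3 libraries, where it was the peak of rank 9, 11 and 11. A single TRα-/- control library had a peak there, of 0.75, and none of the 6 wild-type libraries had one. One of the highest peaks of the T3-treated TRα-/- libraries was thus called in no wild-type library. Whether so narrow and high a peak is TR binding was not tested, since no input library was used. At eri3, which encodes an exoribonuclease, a region on chromosome 4 (82777564 to 82777746) was also highest in TRα-/- T3, with 3.44, 1.62 and 1.93, and had 1 peak in wild-type control (1.38) and 1 in wild-type T3 (0.471). Only 1 gene-body region was called in each TRα-/- library and in no wild-type one (0.0216%, against 0.00651% of all regions). It lay in LOC101733691 on chromosome 9 (3881485 to 3882545) and had values between 0.625 and 1.2.

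**Figure D4:**
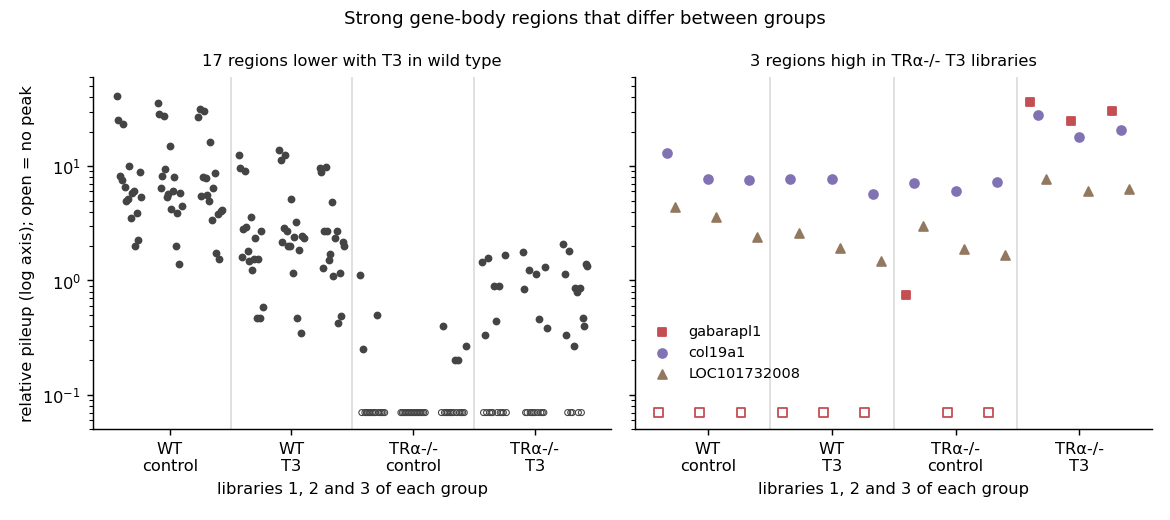
Relative pileup (log axis) in the 12 libraries, left for the 17 gene-body regions that were lower with T3 in wild-type intestine and right for regions of gabarapl1, col19a1 and LOC101732008; open symbols stand for libraries with no peak. The 17 regions had medians of 5.61 to 6.12 in wild-type control and of 1.82 to 2.38 in wild-type T3 libraries and few peaks in TRα-/- control, and the 3 regions at right were highest in TRα-/- T3 libraries.

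Levels at constant sites were compared in the 1120 gene-body regions that had 12 peaks. Log2 pileups were centred on the median of each library and fitted with limma, with Benjamini-Hochberg adjustment over the 3944 regions of any kind that had 12 peaks. The libraries were similar to each other at these sites, with correlations across regions, which are not independent replicates, of 0.819 to 0.931 within and 0.778 to 0.916 between conditions.

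T3 changed no constant gene-body region detectably in wild-type intestine. The number called was 0 of 1120 (0.127% of all regions were called), 61 had an unadjusted p below 0.05, and quantile normalization gave 2. This fit left out the narrow sites above, since they had no peak in part of the TRα-/- libraries.

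In TRα-/- intestine, 20 of the 1120 regions changed with T3 (1.79%, against 1.75% of all regions), 16 upward and 4 downward. The clearest was in col19a1, a gene of a minor collagen of basement membranes, on chromosome 5 (90893584 to 90894230). Its relative pileup was 13.1, 7.78 and 7.61 in wild-type control, 7.76, 7.72 and 5.71 in wild-type T3, 7.12, 6.07 and 7.27 in TRα-/- control and 28.1, 18.1 and 20.5 in TRα-/- T3 libraries. The 3 TRα-/- T3 libraries lay above the other 9. Among those, the wild-type T3 libraries overlapped with both control groups, and the wild-type control libraries lay above the TRα-/- control libraries. The log2 fold change with T3 in the knockout was 1.68 (SE 0.179, limma adjusted p = 1.37e-07), and the T3 effect differed between genotypes by 2.08 on the log2 scale (SE 0.253, adjusted p = 2.23e-06). A region in LOC101732008 on chromosome 6 (84079730 to 84080135) had means of 3.44 and 2.0 in the wild type and 2.18 and 6.69 in the knockout, without and with T3. It rose with T3 in TRα-/- intestine by 1.66 on the log2 scale (SE 0.245, limma adjusted p = 4.41e-05), and the T3 effect differed between genotypes by 2.43 (SE 0.347, limma adjusted p = 3.46e-05). These were the 2 gene-body regions whose T3 effect differed between genotypes (0.179%, against 0.279% of all regions). On the fold enrichment scale, centred in the same way, the differences in T3 effect were 0.82 and 1.25 and neither was called. The uncentred means at col19a1 were 36.6 and 37.0 in the wild type and 30.5 and 42.9 in the knockout. Their order in TRα-/- intestine was like that of the pileup.

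Other constant sites rose in TRα-/- intestine from a low level without T3. At maml1, which encodes a coactivator of Notch, a region on chromosome 3 (from 3444116) had means of 1.23 and 1.14 in the wild type, 0.481 in TRα-/- control and 1.4 in TRα-/- T3 (log2 fold change with T3 in the knockout 1.57, SE 0.339, limma adjusted p = 0.00686). A region of LOC108647619 had 3.05, 2.5, 0.628 and 1.29 in the same order and rose by 1.09 (adjusted p = 0.0344), and one of LOC100492346 rose by 1.64 (adjusted p = 0.0017). All 3 were also lower in TRα-/- than in wild-type intestine without T3, by log2 differences of -1.45, -2.30 and -1.26 (limma adjusted p = 0.0143, 1.38e-06 and 0.0181). Both comparisons share the TRα-/- control libraries. Under a stricter peak threshold (−log10 q of at least 5), each of the 3 regions had a peak in only 1 TRα-/- control library. Their low level there thus rests on weak peaks. Regions that fell with T3 in the knockout were in gpr20, an orphan receptor gene (log2 fold change -1.84, adjusted p = 0.0029), in mtus2, a microtubule-associated gene (-1.23, adjusted p = 0.0029), in the centriole gene cenpj (-1.03, adjusted p = 0.0169) and in LOC108647601 (-0.88, adjusted p = 0.0346). The gpr20 region had relative pileups of only 0.333, 0.231 and 0.333 in the TRα-/- T3 libraries. Under the stricter threshold no library of that group had a peak there. With fewer libraries the number of calls fell, to 2 without the libraries numbered 2 and to 5 without those numbered 3, and the fold enrichment scale gave 10.

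Between genotypes without T3, 32 regions differed (2.86%, against 2.08% of all regions), 25 of them lower in TRα-/- intestine (1.47% of all regions were lower). Of these 25, 10 were in gpm6b and 8 in LOC100497515. The other lower ones included the region of maml1 and one of the collagen XVIII gene col18a1 on chromosome 9 (from 56490310), with means of 2.44 in wild-type and 1.27 in TRα-/- control (-0.95, SE 0.248, limma adjusted p = 0.0334). Regions higher in the knockout were found in sbf2, a gene of the myotubularin family (1.14, adjusted p = 0.0111), in the transcription factor gene nfx1 (1.60, adjusted p = 0.0134), in LOC100485355 (1.61, adjusted p = 0.0134), in the odorant receptor gene or5b12 (0.86, adjusted p = 0.00699) and in the kinase gene map3k19 (0.96, adjusted p = 0.00856). The number of calls was 51 without the libraries numbered 1, 2 without those numbered 2 or 3, and 3 on the fold enrichment scale. A fit of the control libraries alone gave 12 (0.649% of all regions).

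With T3, 15 constant regions differed between genotypes (1.34%, against 1.14% of all regions). The 10 that were lower in TRα-/- intestine (0.558% of all regions were lower) were all in gpm6b. The 5 higher ones (0.583% of all regions were higher) were those of col19a1 (1.64, adjusted p = 1.43e-07) and LOC101732008, one of the IgLON adhesion gene iglon5 (1.44, limma adjusted p = 0.0266), one of the calcium sensor gene ncs1 (0.61, adjusted p = 0.0468) and one of the tyrosine kinase gene abl1. The abl1 region on chromosome 8 (5818231 to 5819177) had relative pileups of 6.06, 6.0 and 5.83 in wild-type T3 and of 9.78, 9.0 and 8.73 in TRα-/- T3 libraries, which did not overlap (0.62, SE 0.147, limma adjusted p = 0.0242). The fold enrichment scale gave 0 calls and quantile normalization 7, and leaving out the libraries numbered 2 or 3 gave 2 and 4.

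The lower pileup of gpm6b in the knockout ran over the whole gene. All 25 of its regions, between 102057278 and 102240785 on chromosome 2, had a peak in all 12 libraries. Their median relative pileup was 18.9, 16.9 and 20.6 in wild-type control and 20.9, 23.0 and 20.9 in wild-type T3, against 11.9, 12.7 and 14.5 in TRα-/- control and 16.6, 14.5 and 15.0 in TRα-/- T3 libraries. All TRα-/- libraries were thus below all wild-type libraries. All 25 regions had a log2 difference below 0 between genotypes in both treatments, with medians of -0.33 without and -0.42 with T3, and all 25 had one above 0 for T3 in both genotypes, with a median of 0.26 each. The regions of a gene share its chromatin and are not independent of each other.

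The enrichment over the surroundings did not follow. The median fold enrichment at the gpm6b regions was 3.14 to 3.99 in every library, against 6.56 to 12 over all 1120 gene-body regions, so that the background beside these peaks was high, and it did not separate the genotypes. For the 5 gpm6b regions with the lowest adjusted p, log2 fold enrichment was also centred on the library median. The difference between genotypes with T3 was then positive, between 0.22 and 0.43. Before centring, the mean fold enrichment at each of these 5 regions was lower in TRα-/- T3 than in wild-type T3 libraries. Of the 24 regions of LOC100497515, on chromosome 9 (45506342 to 45631068), 14 were constant. Their median relative pileup was 4.88, 5.64 and 6.38 in wild-type control and 4.68, 5.22 and 5.47 in wild-type T3, against 3.44, 3.47 and 3.57 in TRα-/- control and 3.39, 4.08 and 4.4 in TRα-/- T3 libraries, and their median fold enrichment was 3.76 to 5.29. Between genotypes 8 of the 14 were lower in the knockout without T3 and 0 were called with T3, where the median log2 difference was -0.4. Unlike gpm6b, 9 of the 14 had a log2 fold change below 0 with T3 in the wild type.

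**Figure D5:**
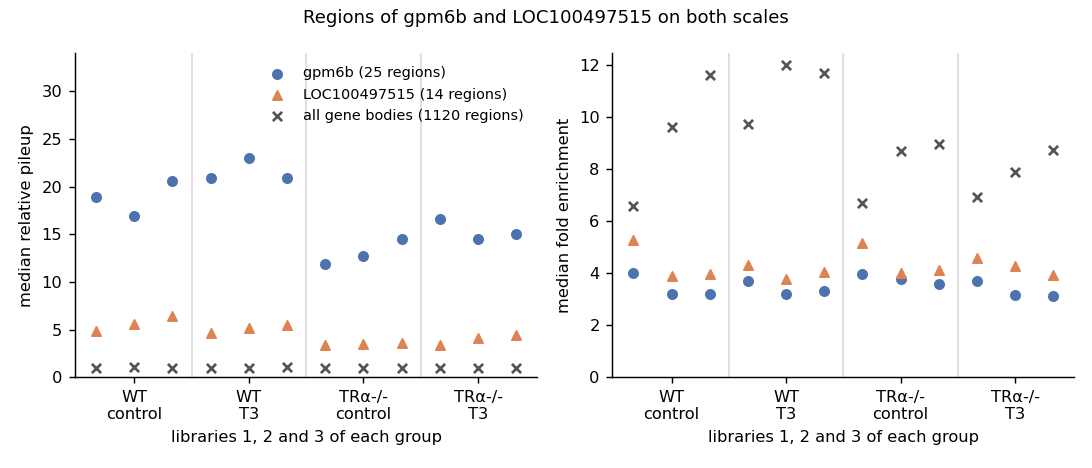
Median relative pileup (left) and median fold enrichment (right) in each of the 12 libraries over the 25 regions of gpm6b, 14 regions of LOC100497515 and all 1120 constant gene-body regions. The relative pileup at gpm6b is 16.9 to 23.0 in wild-type and 11.9 to 16.6 in TRα-/- libraries, while its fold enrichment stays between 3.14 and 3.99.

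Gene-body regions were then counted in genes of pathways that take part in T3-dependent remodelling of the intestine. As given above, 14.8% of all annotated genes held a region. The share also differed with distance from a chromosome end. Genes of like length are given beside most lists below, but place on the chromosome was not matched. Of the nuclear receptor genes, 10 of 29 (34.5%) held one, with 12 regions in all, none of which had a peak in all 12 libraries (24.2% of all gene-body regions did), and 4 of which were found in wild-type T3 and in no TRα-/- T3 library (10.2% of all gene-body regions). Their median length was 46158 bp, and 21.0% of all genes of 20 to 50 kb held a region. Besides thrb they were the mineralocorticoid and glucocorticoid receptor genes nr3c2 and nr3c1, hnf4a, hnf4g, nr5a2, nr1h4, esrrg, ar and pgr. The region of nr3c2 had a peak in 7 libraries and a mean relative pileup of 0.941 in wild-type T3, and the best region of hnf4a, which encodes a factor of epithelial differentiation, had one in 10 libraries and means of 0.522 and 0.474 in the wild type. Of the TR corepressor and coactivator genes, 2 of 16 (12.5%) held a region. Their median length was 61157 bp, and 27.4% of all genes of 50 to 100 kb held one. The coactivator gene ncoa3 held a region with a peak in all 12 libraries and means of 1.29, 1.73, 1.32 and 1.26. Of the genes of thyroid hormone metabolism, transport and early response, with a median length of 23813 bp, 1 of 10 (10.0%) held a region.

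In the pathways of stem cell signalling, regions were held by 5 of 19 Hedgehog genes (26.3%), 9 of 42 Wnt genes (21.4%), 3 of 17 Notch genes (17.6%) and 4 of 28 genes of BMP and TGF-β signalling (14.3%). The median length of the Hedgehog genes was 60714 bp, in the class of 50 to 100 kb in which 27.4% of all genes held a region, and that of the other 3 lists was 33741 to 41456 bp, in the class of 20 to 50 kb with 21.0%. These shares were thus close to or below those of genes of like length, with place on the chromosome not taken into account. In the Hedgehog list, ihh, which encodes the ligand Indian hedgehog, held 3 regions on chromosome 9, with a peak in 10, 10 and 5 libraries. The last of them, from 77672776, was called in each wild-type T3 library, in 2 wild-type control libraries and never in the knockout. The gene disp1, which encodes the transporter that releases the ligand, held 6, 2 of them with a peak in all 12 libraries, and the better-ranked of these had means of 1.01, 0.996, 0.856 and 1.12. In the Wnt list, the ligand genes wnt9a and wnt3a held 7 and 3 regions and the agonist gene rspo2 held 3, with a constant region in each. A region of znrf3, which encodes a ubiquitin ligase that removes Wnt receptors (chromosome 1, 157601144 to 157601456), had relative pileups of 1.06, 0.812 and 1.09 in wild-type T3, 0.5 in 1 wild-type control library and no peak elsewhere. In the Notch list, the receptor gene notch1 held 7 regions and maml1 and maml2 1 each, and in the BMP and TGF-β list the ligand gene tgfb2 held 5, the activin receptor gene acvr2b 6, smad7 2 and smad2 1. The region of maml1 was the only one of these 4 lists that limma called in any comparison.

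Structural and regulatory genes followed. Regions were held by 13 of 53 genes of extracellular matrix, integrins and metalloproteinases (24.5%, with a median length of 57733 bp), among them the basement membrane genes lama5 and hspg2 and the protease gene adamts9 with 6, 6 and 7 regions, by 7 of 38 chromatin enzyme genes (18.4%), of which the demethylase gene kdm7a held 10, and by 5 of 25 genes of smooth muscle, connective tissue and enteric neurons, of which the GDNF receptor gene gfra1 and the smooth muscle regulator gene myocd held 11 each. Of the cell cycle genes, 4 of 45 (8.89%) held a region, of the apoptosis genes 3 of 22 (13.6%) and of the gut epithelium genes 4 of 28 (14.3%). The median length of the cell cycle genes was 12802 bp, in the class of 5 to 20 kb in which 9.58% of all genes held a region. That of the apoptosis and gut epithelium genes was 25556 and 22040 bp, in the class of 20 to 50 kb with 21.0%. Synaptic and axonal adhesion genes had the highest share of the lists, with 27 of 44 (61.4%) and 240 regions. Their median length, however, was 299460 bp, in the range where 59.7% of all genes held a region. Of the 240 regions, 62 were constant (24.2% of all gene-body regions were). In wild-type T3 and in no TRα-/- T3 library 26 of the 240 were found (10.2% of all gene-body regions).

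In a list of 15 single genes of T3 response, Hedgehog signalling, the cell cycle and the epithelium, most of which the study discusses, thrb held 2 gene-body regions, ihh 3 and ccnd2, a cyclin D gene, 2. The other region of thrb (77303571 to 77304427) had a peak in 11 libraries. The better of the ccnd2 regions, on chromosome 3 (2695741 to 2696500), had a peak in 9 libraries and a mean relative pileup of 0.503 in TRα-/- control. The genes thibz, klf9, shh, hhip, cdon, ptch1, cdk1, ccna1, ccna2, myc and atp6v1b2 held none, and muc3a has no gene entry in the lists. The study also assigns peaks up to 5 kb on either side of a gene. By that wider rule it reports shh, cdon, ptch1 and cdk1, among others, as bound by TR. Regions at gene starts and in flanks are not counted here.

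Gene-body regions were compared with the other classes of region on the width, rank and fold enrichment of their peaks. The rule for the classes measures distances from the edges of a region, so a wider region reaches a gene start or a gene more easily. Width is therefore not independent of the class. The width was that of the strongest peak of a region in each library. In the 4 conditions its median in gene bodies was lower on average by 14.3 bp than at gene starts. It was lower by 32.4 bp than in gene flanks and by 27.2 bp than far from genes. This held in 11, 12 and 12 of the 12 libraries. The merged gene-body regions had a median width of 845 bp, against 885, 890 and 912.5 bp in the other classes, in that order. Their median rank was 1.69 percentile points weaker than at gene starts and 1.5 points weaker than in flanks, but within 0.0817 points of that of far regions, and their median fold enrichment was lower by 0.288 and 0.252 than in the first 2 classes. An exact sign-flip test over the 4 conditions reached the smallest p it allows for the width and for the comparisons with starts and flanks (adjusted p = 0.161 over 9 comparisons), and gave p = 0.75 and 0.875 for rank and fold enrichment against far regions. The design could therefore not place any of these differences below 0.05.

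The gene-body regions nearest to the limit of 1 kb lay 1001 to 1009 bp from a start, in LOC100487969, LOC101730987 and LOC105947461, and had a peak in 10, 12 and 6 libraries. The regions just on the other side, at nup85, wdr89 and LOC100493137, lay 988 to 1000 bp from a start and had a peak in 12, 7 and 10.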

How the data were processed

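Chromatin of tadpole intestine was precipitated with an antibody against TR and sequenced. According to the submitters' processing notes, Bowtie2 2.3.4.1 and MACS2 2.1.1.20160309 were used, and peaks were called in each library by itself without an input library. The authors deposited for each peak its position in Xenbase build v9.1, its pileup signal (stacked fragments at the summit, not scaled to depth), its fold enrichment ratio over the local background, −log10 p and −log10 q, together with nearby gene features. In the deposited lists the lowest −log10 q was 1.3 and the lowest pileup was 2 to 4 fragments. The number of reads is unknown, and the background behind each value was estimated from the same library.

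The 462997 peaks were joined into 264370 regions, of which 15365 had been called in each of the 3 libraries of some condition. Groups came from the labels of the samples. Gene positions came from the gene entries of the lists, which cover 68.7% of the 19140 gene names in them, so that regions in the other genes are counted among those far from genes or in flanks. Counts per library were compared with exact permutation tests, classes of region with exact sign-flip tests, and levels with limma 3.58.1 (R 4.3.3, trend and robust options, Benjamini-Hochberg adjustment, threshold 0.05). A region was placed in pairs of groups with no overlap when all 3 libraries of one and none of the other had a peak. Python 3.11.15 with numpy 2.4.6, pandas 2.3.3, scipy 1.17.1 and matplotlib 3.10.9 was used, and the joining and the limma fits were tested on simulated data. Alternatives were a minimum of 5 for −log10 q, equal numbers of the strongest peaks, a longer overlap in joining, a peak in 2 of 3 libraries, a 5 kb limit from gene starts, regions wholly inside genes, quantile normalization, fold enrichment in place of pileup, a pseudocount of 1 fragment, a mean pileup of at least 10 fragments, regions called in each of the 6 libraries compared, each replicate number left out and a replicate block.

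The regions named are the 10 with the best median rank among those with a peak in all 12 libraries, those of the 10 genes with the most regions, up to 5 per direction and comparison by adjusted p or by rank, examples of each gene list, those in 15 single genes, most of which the study discusses, and the 3 on each side of the 1 kb limit. The 17 regions lower with T3 in the wild type and their examples were chosen after their values were seen. The members, the gene lists and the rule were chosen with earlier results of these data known. Of the host genes, 94.8% matched the RefSeq table by gene ID. The sequences of the regions were not analysed here.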

Additional observations from a re-analysis of the deposited data

Results flagged for a closer look

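At 2 constant gene-body regions the effect of T3 differed between the genotypes by a test of the difference itself (limma, interaction of T3 and genotype, Benjamini-Hochberg adjustment). At the col19a1 region on chromosome 5 the T3 effect in TRα-/- intestine was 2.08 higher on the log2 scale than in the wild type, and at the LOC101732008 region on chromosome 6 it was 2.43 higher. In both, the 3 TRα-/- T3 libraries lay above the other 9. Each condition was 1 ChIP sample, so that a property of the TRα-/- T3 sample cannot be told apart from an effect of T3 in this genotype.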

How the results depend on the processing

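The number of gene-body regions was 2158 with a −log10 q of at least 5, 3078 with equal numbers of peaks, 9324 with a peak in 2 of 3 libraries, and 5804 to 7366 when the libraries of one replicate number were left out and a peak in both of the others was required, which is a looser rule by construction. Counts of regions with a peak in one group and none in the other moved with the same settings. A −log10 q of at least 5 gave 82 gained and 7 lost with T3 in the wild type, 31 lost with T3 in TRα-/- intestine, 4 and 76 found in TRα-/- or wild-type control alone and 2 found in TRα-/- T3 alone. Equal numbers of peaks gave 23 lost with T3 in the wild type, 47 gained and 35 lost in the knockout, 100 found in wild-type control alone and 169 in wild-type T3 alone. With 2 of 3 libraries, the gained and lost counts were 927 and 807 in the wild type and 301 and 1016 in the knockout, and those found in TRα-/- and in wild-type intestine alone were 591 and 1417 without and 144 and 1940 with T3. Leaving out a replicate number gave, in the same order, 545 to 707, 234 to 517, 166 to 243, 507 to 574, 250 to 372, 514 to 1107, 61 to 101 and 1165 to 1482. The counts of regions and of calls in this section stand without the share over all regions. They show how the numbers moved with the settings, and by themselves cannot show whether gene bodies differ from all regions.

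The T3 difference in regions with a peak per TRα-/- library turned to 58.3 with equal numbers of peaks. The small difference from far regions turned sign for the rank, to -0.234 with a −log10 q of at least 5, and ranged from -0.0683 to 0.213 when a replicate number was left out. For fold enrichment it ranged from -0.0124 to 0.0432 in the latter case and was -0.0060 without the libraries numbered 3.

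For the levels at constant regions, T3 in the wild type gave 2 calls with quantile normalization and 17 over the regions with a peak in all 6 libraries. T3 in TRα-/- intestine gave 10 on the fold enrichment scale and 2 to 18 without a replicate number. The genotypes differed without T3 at 3 regions on the fold enrichment scale, at 2 to 51 without a replicate number and at 12 with a peak in all 6 libraries, and with T3 at 7 with quantile normalization, 0 on the fold enrichment scale and 2 to 19 without a replicate number. The difference of T3 effects gave 0 on the fold enrichment scale. On that scale, log2 differences that had been below 0 between genotypes became 0.29 (from 102154712), 0.33 (102125247), 0.22 (102161138), 0.41 (102098197) and 0.43 (102146591) at gpm6b with T3, 0.044 at gpm6b (102125247) without T3, and 0.049 (45612905) and 0.14 (45600239) at LOC100497515 without T3. These log2 values were centred on the median of each library. Before centring, the mean fold enrichment at each of these regions was lower in TRα-/- than in wild-type intestine. Why the pileup and fold enrichment scales differ was not tested. In alternatives added after seeing the data, the 17 regions lower with T3 in the wild type became 7 on the fold enrichment scale and 16 to 17 with 1 wild-type library left out, and without the wild-type control library numbered 3 there were 7 higher ones.

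In log2 pileup at constant regions, same-numbered libraries had correlations of their deviations of at most 0.121, above 0.1 in 4 of 12. The number of gene-body regions with a peak, however, rose from library 1 to library 3 in each of the 4 conditions. What the replicate numbers share is not known. With a replicate block, limma gave 0, 29, 41 and 21 calls for the 4 comparisons and 2 for the difference of T3 effects, and differences in regions with a peak per library had p = 0.25 in an exact sign-flip test over the 3 pairs, the smallest it allows. The lowest pileup called was 2 to 4 fragments per library, so that the presence or absence of a weak peak rests on few fragments.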
